A study of Mus musculus with 4 samples.

Results

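Neurofilaments and microtubules form the axonal cytoskeleton, and 10 mouse genes that encode their main subunits are described here across the cell classes of the retina. The genes were taken by name: the neurofilament genes Nefl, Nefm and Nefh, the alpha tubulin genes Tuba1a and Tuba1b, and the beta tubulin genes Tubb2a, Tubb3, Tubb4a, Tubb4b and Tubb5. All 10 were in the deposited table, as 10 of its 13452 Ensembl genes and 14 of its 44325 transcript isoforms. Together they held 599556 of 149645836 counts (0.401%).

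All mice were male, wild-type and of the inbred strain C57BL6/J. Retinal cells were freed with papain, barcoded as single cells (10x Genomics), and their cDNA was read at full length on a PromethION, a nanopore sequencer. There were 4 libraries: 2 without enrichment, 1 of them at postnatal day 40 and the other with no age in the labels, 1 labelled CD73 enrichment at postnatal week 8, and 1 labelled CD90.2 enrichment at postnatal month 4. The protocol describes magnetic depletion of photoreceptors through CD73, a photoreceptor surface protein, and magnetic selection of cells carrying CD90.2, a form of the Thy1 protein found on ganglion cells and other neurons.

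The table gives counts for 6 cell classes, amacrine cells, bipolar cells, cones, Müller glia, rods and retinal ganglion cells (RGCs), and its columns name no library. Each class is therefore 1 sample without a replicate, no test between classes was possible, and age or enrichment cannot be told apart from class. Levels are CPM, counts scaled to a column total of 1000000. The 95% intervals, exact Poisson for levels and ratios and exact Clopper-Pearson for shares, cover counting error only, and several reads may stem from 1 molecule. A level in a pooled class also does not separate fewer positive cells from less RNA per cell.

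Column totals ran from 3509890 counts in RGCs to 55437340 in rods. All 6 listed markers of rods, cones, bipolar cells, amacrine cells and RGCs were highest in their own column, as were 3 of the 4 listed Müller glia markers found in the table. Rod markers nevertheless summed to 481 CPM in amacrine cells, 1954 in bipolar cells, 7429 in Müller glia and 28011 in cones, against 79420 in rods. In RGCs they had 0 counts, which allows up to 0.855 CPM (3 counts). The Müller glia column was also the highest for the summed markers of microglia (6 of 6 in the table, 1057 CPM), pericytes (2 of 4, 253 CPM), astrocytes (4 of 5, 119 CPM) and endothelial cells (1 of 3, 7.66 CPM). Their part in the levels of that column was not tested.

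Neurofilaments are intermediate filaments of neurons, built from a light (Nefl), a medium (Nefm) and a heavy chain (Nefh). The light chain forms the core, the larger chains carry long tails that project from it, and the filaments set the calibre of large axons such as those that RGCs send through the optic nerve. Microtubules are polymers of alpha and beta tubulin dimers. Tubulin isotypes are nearly alike in their core and differ mostly in their glutamate-rich carboxyl ends, where enzymes add glutamate chains. Tubb3 is the isotype most used as a mark of neurons.

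The last 63 coding bases show how the beta tubulin genes differ where the proteins differ. They were read 5′ to 3′ on the coding strand from GENCODE M21 transcripts (mouse build GRCm38, the stop codon included), with the glutamate codons GAA and GAG in capitals.
Tubb2a, chr13:34074468-34074530, minus strand: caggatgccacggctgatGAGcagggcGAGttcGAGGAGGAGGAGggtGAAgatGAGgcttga
Tubb3, chr8:123421620-123421682, plus strand: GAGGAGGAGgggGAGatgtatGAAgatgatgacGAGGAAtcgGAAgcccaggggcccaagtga
Tubb4a, chr17:57080690-57080752, minus strand: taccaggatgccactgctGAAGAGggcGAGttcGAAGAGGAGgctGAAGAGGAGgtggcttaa
Tubb4b, chr2:25222308-25222370, minus strand: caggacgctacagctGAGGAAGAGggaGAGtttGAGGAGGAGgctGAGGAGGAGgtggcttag
Tubb5, chr17:35834982-35835044, minus strand: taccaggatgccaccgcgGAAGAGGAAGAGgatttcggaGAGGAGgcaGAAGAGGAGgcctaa

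Each of these stretches held 8 to 10 glutamate codons. Over these bases Tubb3 matched the other listed beta tubulin genes at 48.4 to 50% of aligned positions, and over the whole coding sequence at 81.5 to 83.4%. Its coding sequence is longer, at 1353 nt against 1335 to 1338, so its last 63 bases need not cover the same stretch. How far the Tubb3 end itself differs therefore cannot be read from the lower match. Tuba1a and Tuba1b matched at 98.3% of their 1356 coding bases, with 23 differences, and at 41.6% of their 3′ UTRs. Tubb2a and its neighbour Tubb2b, a beta tubulin gene outside the 10, matched at 96.5% of coding bases.

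How the genes were distributed over the classes was the first comparison. By a rule of size, a gene was called highest in a class when its CPM there was at least 2-fold that of every other class. This held for 5 of the 10 genes: Nefl, Nefm and Tubb3 in RGCs, Nefh in cones and Tubb4b in Müller glia. Among the 13393 Ensembl genes with at least 10 counts, 39.1% met the rule in some class, 4.86% in RGCs, 2.16% in cones and 11.2% in Müller glia. Without the 2-fold requirement, 5 of the 10 genes were highest in RGCs, as were 13.2% of all genes tested. The median of the log2 ratio of RGCs over the highest other class (CPM plus a pseudocount of 1) was 0.13 for the 10 genes and -1.16 for all genes tested. These backgrounds were not matched in counts: the weakest of the 10 genes had 744, and RGCs had the lowest column total. Among genes with at least 100 counts, 29.95% met the 2-fold rule in some class.

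**Figure D1:**
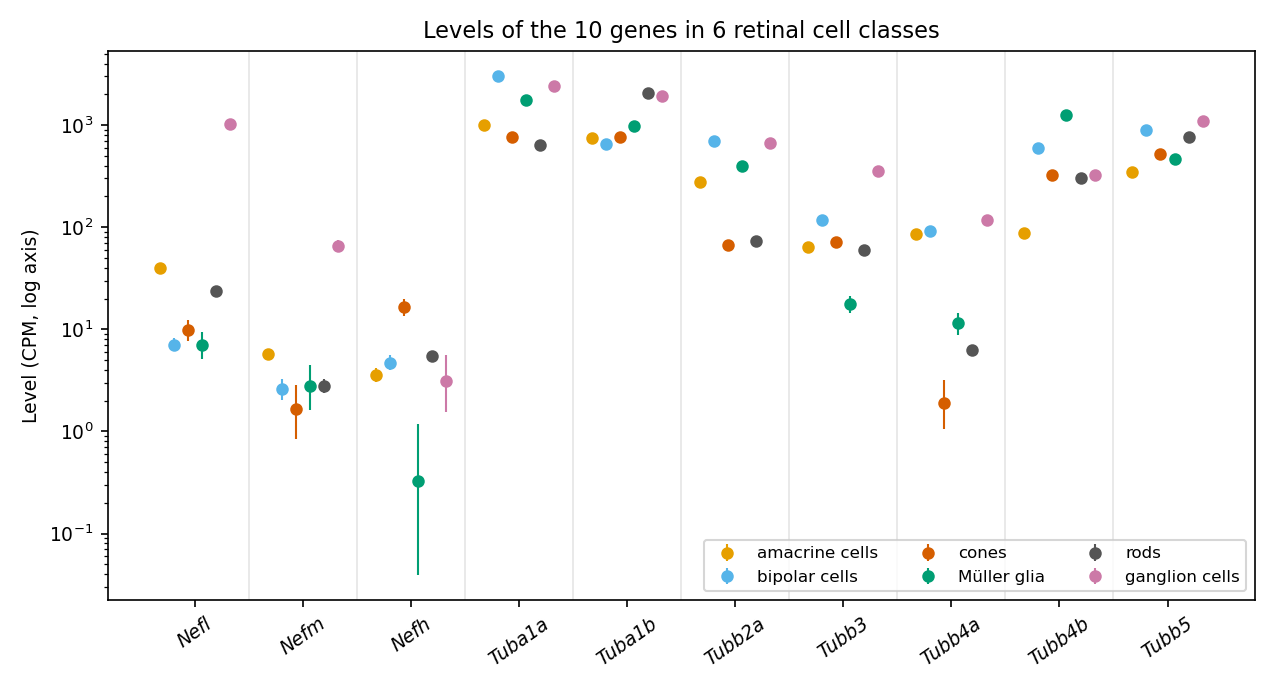
Level of each gene in CPM (log axis) in the 6 cell classes, 1 point per pooled class, with exact Poisson 95% intervals for counting error. For Nefl and Nefm the RGC points, at 1025 and 65.5 CPM, stand above those of all other classes, whereas Nefh is highest in cones (16.4 CPM), Tuba1b in rods (2051 CPM) and Tubb4b in Müller glia (1242 CPM).

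Nefl, the light chain (ENSMUSG00000022055.7, chr14:68083863-68089095, plus strand), was the neurofilament gene with the most counts, 7167. Its level was 1025 CPM in RGCs, 40.2 in amacrine cells, 23.6 in rods, 9.85 in cones, 7.10 in bipolar cells and 7.01 in Müller glia. RGCs were 25.5-fold above amacrine cells (24.1 to 26.9) and 146-fold above Müller glia. Nefl ranked 218th of the 7364 Ensembl genes with a count in RGCs and 2244th of 12198 in amacrine cells. Among the lower classes the order amacrine cells, rods, cones, bipolar cells was separated beyond counting error, and bipolar cells and Müller glia were not.

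Nefm, the medium chain (ENSMUSG00000022054.11, chr14:68082590-68124846, minus strand), had 766 counts and was also highest in RGCs. Its level was 65.5 CPM in RGCs, 5.72 in amacrine cells, 2.81 in rods, 2.77 in Müller glia, 2.59 in bipolar cells and 1.64 in cones. RGCs were 11.5-fold above amacrine cells (9.57 to 13.7), which were 2.03-fold above rods (1.66 to 2.49). Rods, Müller glia, bipolar cells and cones could not be ordered, since each neighbouring pair differed by less than counting error. The annotated span of Nefm contains Nefl on the opposite strand, but the deposited Nefm model, chr14:68120840-68124846, lies outside Nefl.

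Nefh, the heavy chain (ENSMUSG00000020396.8, chr11:4938754-4948064, minus strand), had another order, with cones first and RGCs near the bottom. Its 744 counts gave 16.4 CPM in cones, 5.43 in rods, 4.72 in bipolar cells, 3.59 in amacrine cells, 3.13 in RGCs and 0.326 in Müller glia. Cones were 3.03-fold above rods (2.43 to 3.75). Rods and bipolar cells differed by less than counting error, as did amacrine cells and RGCs. The values in RGCs and Müller glia rest on 11 and 2 counts, so the RGC level could lie anywhere from 1.56 to 5.61 CPM. The counts also rest on a short transcript model, described further on.

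Low Nefl and Nefm levels outside RGCs can be set beside the markers of RGCs in the same columns. The 6 markers (Rbpms, Slc17a6, Pou4f1, Sncg, Thy1 and Pou4f2) summed to 16744 CPM in RGCs, of which Sncg, gamma-synuclein, made 15741. In amacrine cells the sum was 653 CPM, 3.90% of that in RGCs (3.85 to 3.96), and Nefl was at 3.93% of its RGC level (3.71 to 4.15). In rods the marker sum was at 0.551% and Nefl at 2.31%. In bipolar cells, cones and Müller glia the marker sum was at 0.136, 0.206 and 0.250%, and Nefl at 0.693, 0.962 and 0.684%. The intervals of Nefl and of the marker sum thus overlapped in amacrine cells. There the sum was mostly Sncg (16088 counts) and Thy1 (15301 counts), which differed widely. Sncg was at 2.12% of its RGC level (2.08 to 2.16), below Nefl, and Thy1 at 34.9%, above it. In the other 4 classes Nefl was 2.73- to 5.09-fold higher relative to RGCs than the sum, which is mostly Sncg in those classes. Against single markers the order could turn round. Slc17a6, the vesicular glutamate transporter of RGCs, was at 3.68% of its RGC level in bipolar cells and 6.68% in cones, and Rbpms, an RNA-binding protein, at 9.29% in Müller glia, each above Nefl there beyond counting error.

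The markers did not move alike. In amacrine cells Thy1, the gene of the CD90.2 antigen used for selection, was at 34.9% of its RGC level, Sncg at 2.12%, Slc17a6 at 5.12%, and the RGC transcription factors Pou4f1 and Pou4f2 at 1.16 and 2.87%. Pou4f1 and Pou4f2 were at 0 counts in bipolar cells, cones and Müller glia, but they had only 63 and 33 counts in RGCs, so the exact intervals there reach 0.730 to 6.77% of the RGC level. Nefm was at 8.73% of its RGC level in amacrine cells and at 2.51 to 4.29% in the other 4 classes. Whether RNA from RGCs contributed to these low levels was not tested.

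**Figure D2:**
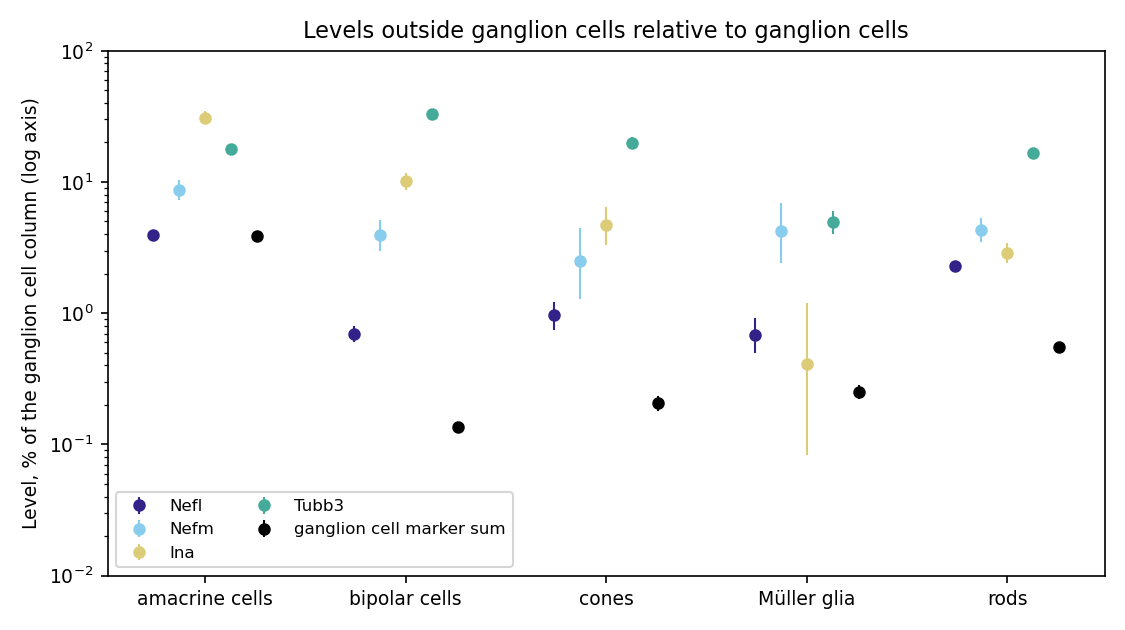
Level in 5 classes as a percentage of the RGC level (log axis), with exact 95% intervals for counting error, for Nefl, Nefm, the related filament gene Ina, Tubb3 and the sum of 6 RGC markers. In amacrine cells Nefl (3.93%) and the marker sum (3.90%) coincide, but that sum is there mostly Sncg (2.12% of its RGC level) and Thy1 (34.9%). Tubb3 lies above the marker sum in all 5 classes, but in amacrine cells, at 17.8%, it is below Thy1 alone.

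Between the 3 chains, shares were taken of their counts, without division by length. The Nefm and Nefh counts rest on models that end inside the coding sequence, described further on. Shares of counts therefore need not be the proportions of the full-length transcripts. Nefl made 93.7% of neurofilament counts in RGCs (92.9 to 94.5), 81.2% in amacrine cells, 74.1% in rods, 69.4% in Müller glia, 49.3% in bipolar cells and 35.3% in cones. Nefh made 58.8% in cones (51.7 to 65.7) and 0.287% in RGCs (0.143 to 0.512). Nefm stayed between 5.88% in cones and 27.4% in Müller glia. Divided by the length of each model, which weights the short Nefh model more, Nefl made 91.9% in RGCs, 52.6% in rods and 27.5% in bipolar cells, where Nefh then led with 60.2%.

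**Figure D3:**
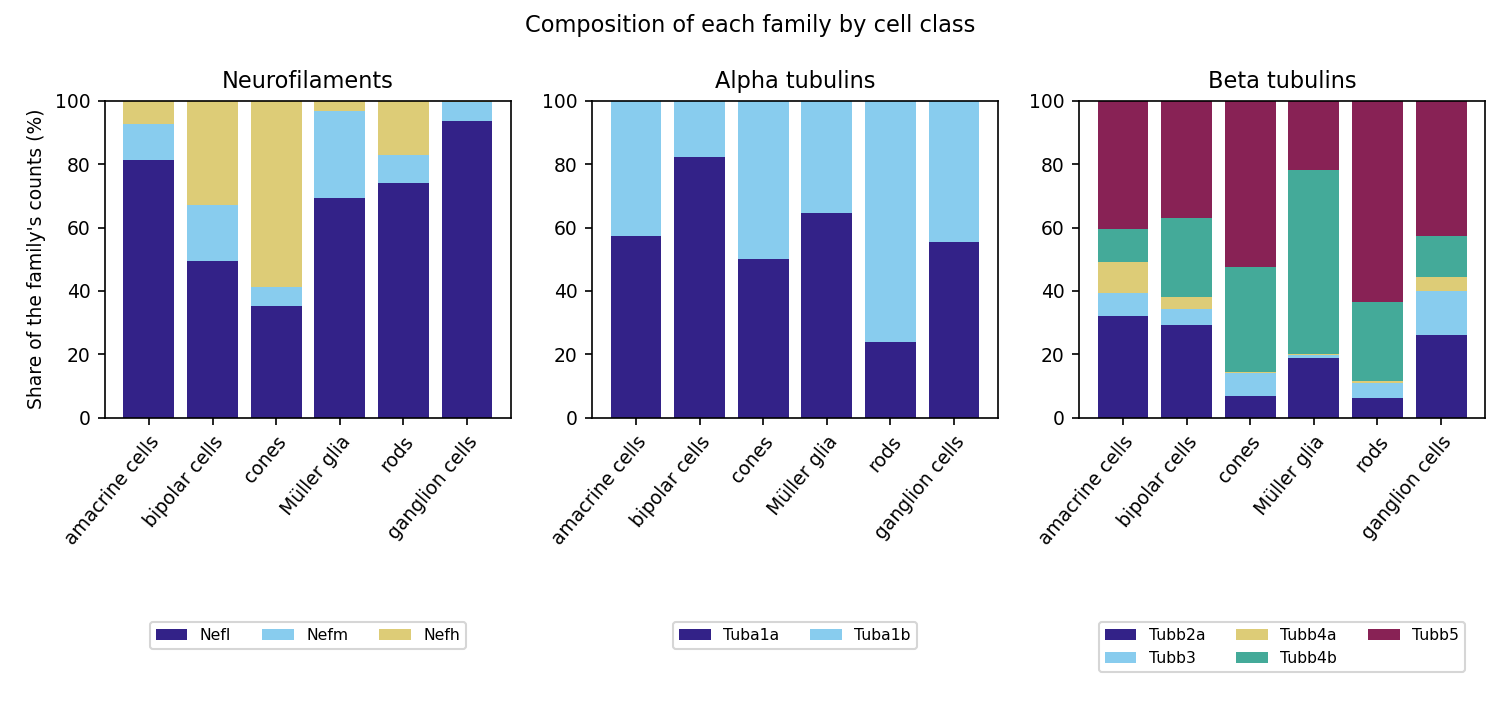
Shares of counts within the neurofilament genes, the alpha tubulin pair and the 5 beta tubulin genes, by cell class. Bars sum to 100% in each class. Nefh leads in cones, Tuba1b in rods and Tubb4b in Müller glia. The Nefm and Nefh counts rest on models that end inside the coding sequence.

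The alpha tubulins Tuba1a and Tuba1b were the most abundant of the genes, with 196664 and 187234 counts. Tuba1a (ENSMUSG00000072235.6, chr15:98949837-98953703, minus strand) is the isotype of young and growing neurons. Its level was 3026 CPM in bipolar cells, 2412 in RGCs, 1775 in Müller glia, 1006 in amacrine cells, 759 in cones and 640 in rods. Every neighbouring pair in this order differed beyond counting error, and bipolar cells were 1.25-fold above RGCs (1.23 to 1.28) and 4.73-fold above rods. In bipolar cells Tuba1a ranked 50th of 12374 genes with a count.

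Tuba1b (ENSMUSG00000023004.8, chr15:98931425-98934565, minus strand), an alpha tubulin of most cell types, was high in other classes. Its level was 2051 CPM in rods, 1947 in RGCs, 977 in Müller glia, 758 in cones, 747 in amacrine cells and 659 in bipolar cells. Rods exceeded RGCs by 1.05-fold (1.03 to 1.08), and this order turned round, to 0.967-fold, when columns were scaled by the median of ratios. Cones and amacrine cells differed by less than counting error. Bipolar cells were thus the highest class for Tuba1a and the lowest for Tuba1b, while rods were the lowest for Tuba1a.

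The pair divided the alpha tubulin counts in opposite ways in rods and bipolar cells. Tuba1a made 82.1% of the counts of both genes in bipolar cells (81.9 to 82.3), 64.5% in Müller glia, 57.4% in amacrine cells, 55.3% in RGCs, 50.1% in cones and 23.8% in rods (23.6 to 24.0). In cones neither gene exceeded the other beyond counting error (49.1 to 51.0). Division by model length moved none of these shares by as much as 1 percentage point. The coding sequences of the pair are nearly alike, so reads that lack both the 5′ and the 3′ UTR could be assigned to either gene. How such reads were treated is not given in the sources used here.

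Of the 5 beta tubulins, Tubb3, Tubb4a and Tubb5 were highest in RGCs, Tubb2a in bipolar cells and Tubb4b in Müller glia. Tubb5 (ENSMUSG00000001525.10, chr17:35833921-35838306, minus strand), a widely expressed isotype, was the most even of the 5. Its level was 1102 CPM in RGCs, 886 in bipolar cells, 761 in rods, 516 in cones, 466 in Müller glia and 349 in amacrine cells. Neighbours in this order all differed beyond counting error, and the whole range was 3.16-fold. Tubb5 was the leading beta tubulin of the 5 in every class but Müller glia, from 37.0% of their counts in bipolar cells to 63.4% in rods.

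Tubb4b (ENSMUSG00000036752.4, chr2:25222160-25224702, minus strand), an isotype of cilia and many other cells, was highest in the glial class. Its level was 1242 CPM in Müller glia, 600.0 in bipolar cells, 327 in RGCs, 324 in cones, 300.1 in rods and 88.5 in amacrine cells. Müller glia were 2.07-fold above bipolar cells (2.01 to 2.13) and 14.0-fold above amacrine cells, and RGCs and cones could not be separated. Tubb4b made 58.1% of the beta tubulin counts in Müller glia (57.2 to 58.9), where Tubb5 made 21.8%.

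Tubb3 (ENSMUSG00000062380.4, chr8:123411424-123422015, plus strand), the neuronal isotype, was highest in RGCs but had counts in every class. Its level was 358 CPM in RGCs, 118 in bipolar cells, 71.3 in cones, 63.9 in amacrine cells, 59.3 in rods and 17.6 in Müller glia. RGCs were 3.04-fold above bipolar cells (2.85 to 3.25), and Müller glia were 3.37-fold below rods. Each neighbouring pair in the order was separated beyond counting error. Relative to RGCs, Tubb3 was at 4.92 to 32.9% in the other classes, above the RGC marker sum in each. In RGCs that sum is mostly Sncg. Of the single markers, Thy1 in amacrine cells was at 34.9% of its RGC level, above Tubb3 at 17.8%. Rbpms in Müller glia was at 9.29% (5.40 to 15.2), an interval that overlaps that of Tubb3 (4.00 to 5.99). Every other single marker value lay below Tubb3. Its share of the 5 beta tubulins was 13.9% in RGCs and 0.823% in Müller glia.

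Tubb4a (ENSMUSG00000062591.5, chr17:57080066-57087782, minus strand), a brain isotype, separated the inner retinal neurons from photoreceptors. Its level was 117 CPM in RGCs, 92.1 in bipolar cells, 85.4 in amacrine cells, 11.4 in Müller glia, 6.22 in rods and 1.92 in cones. Between amacrine cells and Müller glia lay a 7.49-fold step (5.91 to 9.62). Cones, with 14 counts, were 61.3-fold below RGCs (36.1 to 113). Tubb4a made 9.90% of the beta tubulin counts in amacrine cells and 0.196% in cones.

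Tubb2a (ENSMUSG00000058672.7, chr13:34074274-34078007, minus strand), another isotype rich in neurons, was also low in photoreceptors. Its level was 700 CPM in bipolar cells, 672 in RGCs, 402 in Müller glia, 276 in amacrine cells, 73.3 in rods and 67.5 in cones. Bipolar cells and RGCs differed by less than counting error (ratio 1.04, 0.999 to 1.09), as did rods and cones. A 3.76-fold step (3.63 to 3.90) lay between amacrine cells and rods. Of the beta tubulin counts, Tubb2a made 31.9% in amacrine cells, 29.2% in bipolar cells, 26.1% in RGCs, 18.8% in Müller glia, 6.89% in cones and 6.11% in rods.

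Summed over the 10 genes, RGCs had 8029 CPM, bipolar cells 6095, Müller glia 4900, rods 3923, amacrine cells 2665 and cones 2525. The remaining tubulin genes added little to the alpha family, of which Tuba1a and Tuba1b made 95.6 to 97.9% in each class. The 5 beta genes made 99.4% of the beta family in rods but 85.8% in bipolar cells, 86.4% in cones and 88.3% in Müller glia, where Tubb2b reached 393, 152 and 274 CPM.

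The question of the long-read data was which isoforms each class uses, and for these genes the answer was almost always a single annotated one. Of the 14 isoforms, 10 were annotated Ensembl transcripts, 1 per gene, out of 17 transcripts that M21 lists for the 10 genes. The other 4 held 270 counts in all (0.0450%). Nefl, Nefm, Nefh, Tuba1a, Tubb3, Tubb4a, Tubb4b and Tubb5 had 1 isoform only. This was the case for 31.6% of Ensembl genes with at least 10 counts and for 30.4% of the 5846 genes with at least 744 counts, the total of the weakest of the 10, whose median was 2 isoforms. These backgrounds were not matched for the number of annotated transcripts or exons. M21 lists only 1 transcript for Nefl, Nefh, Tuba1a, Tubb2a and Tubb4a.

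Tuba1b and Tubb2a had more than 1 isoform, and neither changed its leading isoform between classes. A change was called when a pair of classes, each with at least 20 counts of the gene, had different leading isoforms and a share differing by at least 50 percentage points. None of the 15 pairs of classes met this for Tuba1b or for Tubb2a, whereas 25% of 7317 genes with several isoforms met it in at least 1 pair. That share was 10.3% when each class needed at least 100 counts and 38.4% when a difference of 25 percentage points was enough. The annotated Tuba1b transcript made 99.8 to 100% of the gene's counts in each class. That of Tubb2a made 97.6% in cones (95.8 to 98.7) and 99.2 to 100% elsewhere.

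The largest unannotated isoform of Tubb2a had 158 counts, 136 of them in bipolar cells, where it made 0.670% of the gene's counts (0.562 to 0.792), with 11 in Müller glia, 7 in cones, 4 in amacrine cells and 0 in rods and RGCs. As a share it was highest in cones, at 1.42% of their 493 counts (0.573 to 2.90), an interval that overlaps that of bipolar cells, and it made 0.446% in Müller glia. Its 0 of 2357 counts in RGCs allow a share of up to 0.156%, the exact upper limit. A smaller isoform of Tubb2a, which fell outside the rule for naming isoforms and was chosen after its values were seen, had 18 of its 29 counts in RGCs (0.764% of the gene's counts there, 0.453 to 1.20) and 8 in amacrine cells. Neither of them had a deposited model, so their structure is not described.

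The other unannotated isoforms joined exons of neighbouring paralogs, and they too were chosen after their values were seen. The genes of each pair lie on the same strand, with 15271 nt between Tuba1b and Tuba1a and 48740 nt between Tubb2a and Tubb2b. An isoform listed under Tuba1b consisted of part of exon 1 of Tuba1a, exons 2 and 3 of Tuba1b and the first 200 nt of its exon 4. It had 55 counts, 44 of them in bipolar cells (0.230% of the gene's counts there, 0.167 to 0.309), 5 each in cones and Müller glia and 1 in rods. An isoform listed under Tubb2a consisted of exons 1 and 2 of Tubb2b with exon 3 and the first 244 nt of exon 4 of Tubb2a. It had 28 counts, 19 of them in bipolar cells (0.0936% of the gene's counts there, 0.0564 to 0.146) and 5 in cones, where it made a larger share (1.01%, 0.330 to 2.35).

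Joined models were also listed under neighbouring genes. One listed under Tubb2b combined part of exon 1 and exons 2 and 3 of that gene with exon 4 of Tubb2a. It had 52 counts, 41 of them in bipolar cells (0.360% of the gene's counts there, 0.258 to 0.488) and 6 in cones (0.541%, 0.199 to 1.17). One listed under Gm49450 combined part of exon 1 and exons 2 and 3 of Tuba1a with the first 200 nt of exon 4 of Tuba1b, with 29 counts, 23 of them in bipolar cells. The chain of introns of the Gm49450 model is annotated in M21 as a protein-coding transcript, and those of the other 3 were not found in M21. In all 4 models most counts were in bipolar cells, the highest class for Tuba1a and Tubb2b and, together with RGCs, for Tubb2a, but the lowest for Tuba1b.

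**Figure D4:**
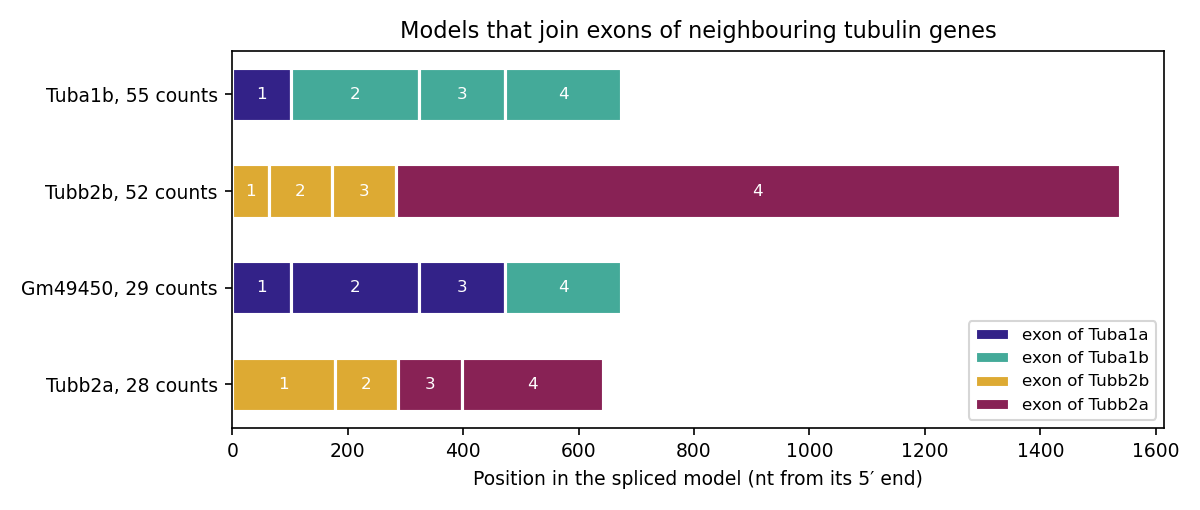
Exons of the 4 joined models, drawn to scale along the spliced model in nt from its 5′ end, coloured by the gene each exon belongs to, with exon numbers inside. Each model is labelled with the gene it is listed under and its counts, from 55 for the Tuba1b model to 28 for the Tubb2a model.

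Exon 3 of Tubb2a and Tubb2b, which the joined models exchange, is printed with the bases that differ between the paralogs in capitals. Sequences are from M21 transcripts (GRCm38), on the coding strand, 5′ to 3′.
Tubb2a exon 3, chr13:34076178-34076288: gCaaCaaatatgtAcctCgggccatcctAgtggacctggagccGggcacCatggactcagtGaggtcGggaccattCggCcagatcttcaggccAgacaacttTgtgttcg
Tubb2b exon 3, chr13:34128872-34128982: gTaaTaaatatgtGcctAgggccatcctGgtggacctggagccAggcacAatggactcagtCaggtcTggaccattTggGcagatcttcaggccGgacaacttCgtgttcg

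Tuba1a and Tuba1b differ at 1 of the 223 bases of exon 2 and at 2 of the 149 bases of exon 3, and Tubb2a and Tubb2b at 13 of the 111 bases of exon 3 and at 14 of the 109 bases of exon 2. Over exon 1 the alpha pair matched at 51.6% and the beta pair at 57.9% of aligned positions. Whether the joined models are transcripts, or arose in amplification or alignment of the sequences of these paralogs, was not tested.

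The deposited models had the same introns as their annotated transcripts for all 10 genes, but not the same ends. For Tuba1a, Tuba1b, Tubb2a, Tubb3, Tubb4a and Tubb4b the model ended at the annotated 3′ end and covered 91.1 to 100% of the annotated length. The model of Tubb5 ended 884 nt and that of Nefl 1205 nt short of the annotated end, both in the 3′ UTR, with the polyadenylation motif AATAAA in the last 40 bases on the transcript strand. They covered 63.3 and 64.4% of the annotated length. Over 14789 annotated models the median coverage was 97.0%.

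Nefm and Nefh ended inside the coding sequence. The Nefm model held 1777 of 3334 nt (53.3%) and 68.6% of the coding sequence, and the Nefh model held 662 of 3994 nt (16.6%) and 20.2% of the coding sequence. The Nefh model also lacked the 5′ part: it spanned positions 939 to 1600 of a transcript whose coding sequence runs from 131 to 3403. Only 1.46% of annotated models covered as small a share of their transcript as Nefh. The ends of both models are printed because the Nefm and Nefh counts were assigned to these models. The 70 bases are from M21 (GRCm38), minus strand, 5′ to 3′, and the last 20 bases of the model are in capitals, followed by the next 20 bases of the annotated transcript.
Nefm, chr14:68120820-68120889: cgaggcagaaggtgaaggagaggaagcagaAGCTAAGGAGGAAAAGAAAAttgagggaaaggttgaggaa
Nefh, chr11:4941128-4941197: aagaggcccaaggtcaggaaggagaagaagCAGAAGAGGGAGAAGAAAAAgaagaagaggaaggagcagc

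Both ends held 12 A among the last 20 bases, and AATAAA or ATTAAA was absent from the last 40. Of the 5040 annotated models that ended at least 20 nt short, 468 (9.29%) ended in coding sequence, with a median of 10 A, and 51.9% of these had at least 10. The median over all 5040 was 9, and 42.3% had at least 10. Whether priming inside these A-rich stretches set the ends was not tested. No other Nefm or Nefh isoform was in the table.

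**Figure D5:**
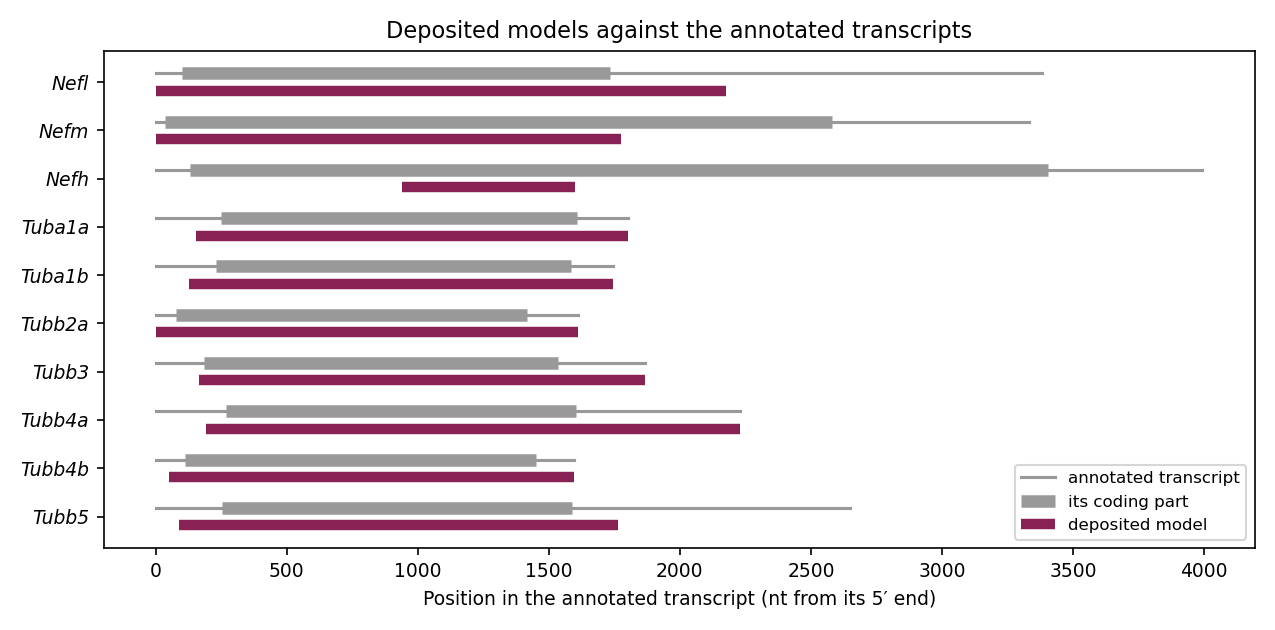
Deposited model of each gene (dark bar) below its annotated M21 transcript (thin line, coding part thick), in nt from the annotated 5′ end. Models of 6 tubulin genes reach the annotated 3′ end, Nefl and Tubb5 stop in the 3′ UTR, and Nefm and Nefh stop in the coding sequence, with Nefh covering 16.6% of its transcript.

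Of 47 further genes of filaments, tubulins, tubulin folding and tubulin modification, 41 were in the table, all with at least 10 counts. The 2-fold rule called 18 of the 41 (39.1% of all genes tested were called in some class): 6 in Müller glia, 3 each in amacrine cells, bipolar cells and rods, 2 in RGCs and 1 in cones. Tuba3a, Tubal3, Tubb1, Synm, Ttll6 and Agbl2 were not among the genes listed.

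The remaining intermediate filament genes were split between RGCs and Müller glia, and all 6 in the table were called, 2 in RGCs and 4 in Müller glia, against 39.1% of all genes tested in any class. Among the 4 were Gfap (60.5 CPM there) and Des (19.2 CPM), both named after their values were seen. Gfap is itself one of the listed astrocyte markers, and Des, desmin, is a filament gene of muscle and pericytes, whose summed markers were highest in the same column. Ina, alpha-internexin, which assembles with the neurofilament chains, was at 119.9 CPM in RGCs, 37.1 in amacrine cells and 12.1 in bipolar cells, and lower still in cones (5.61), rods (3.45) and Müller glia (0.489). Its amacrine level was 30.9% of that in RGCs, where Nefl was at 3.93%. Peripherin (Prph), named after its values were seen because it has only 147 counts, had 122 of them in RGCs (34.8 CPM), with at most 0.249 CPM elsewhere. Vim, vimentin, the main filament of retinal glia, was at 2571 CPM in Müller glia and at 0 of 3509890 counts in RGCs.

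Among the other tubulins, Tuba4a, an alpha tubulin whose gene encodes no terminal tyrosine, was at 126 CPM in RGCs, 105.5 in bipolar cells, 94.0 in rods, 68.6 in cones, 40.5 in amacrine cells and 37.2 in Müller glia. Tuba8 was at 20.9 CPM in amacrine cells and at most 4.56 elsewhere. Tubb2b was at 393 CPM in bipolar cells, 274 in Müller glia, 161 in RGCs, 152 in cones, 20.3 in amacrine cells and 6.84 in rods. Of the gamma tubulins, which nucleate microtubules, Tubg1 was between 43.0 CPM in RGCs and 80.3 in bipolar cells. Tubg2 was at 111 CPM in amacrine cells, 93.5 in RGCs and 53.1 in bipolar cells but at most 4.53 in rods, cones and Müller glia, the same division of classes as for Tubb4a.

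Of 6 folding cofactors, which assemble the alpha and beta chains into dimers, the 2-fold rule called 1, against 39.1% of all genes tested in any class. This was Tbcc, named after its values were seen, with 26 counts, all in amacrine cells. The 4 with at least 1000 counts were highest in amacrine cells or RGCs, by 1.12- to 1.42-fold over the next class. Of all genes tested, 21.3% were highest in amacrine cells and 13.2% in RGCs. Tbca, which binds beta tubulin, was at 1187 CPM in amacrine cells and 962 in RGCs, and Tbcb, which binds alpha tubulin, at 957 in RGCs and 672 in amacrine cells. Arl2, a small GTPase of the same machinery, was at 859 CPM in RGCs and 765 in amacrine cells, with at most 268 in any other class. Tbce was between 19.9 CPM in Müller glia and 55.0 in RGCs.

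Of 21 tubulin modifying enzymes, 19 were in the table and 7 were called, a share near the 39.1% of all genes tested, 3 in bipolar cells, 2 in rods and 1 each in amacrine cells and cones. Ttll11, a polyglutamylase, was at 71.3 CPM in rods and at most 6.71 elsewhere, and Ttll5, another, at 13.7 in rods and at most 4.38 elsewhere. Ttll1, the catalytic subunit of a polyglutamylase complex, was at 102 CPM in RGCs and 68.6 in rods. Agbl3, a carboxypeptidase, was at 32.5 CPM in RGCs and 29.7 in amacrine cells. The alpha tubulin acetyltransferase Atat1 was at 21.9 CPM in Müller glia and 20.5 in RGCs, the deacetylase Sirt2 at 252 in cones, and Svbp, the partner of the detyrosinating vasohibins, at 317 in Müller glia.

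The genes with the profile most like each of the 10 were named by the smallest sum of absolute differences in shares of CPM over the 6 classes, on a scale from 0 (the same profile) to 2, among genes with at least 1000 counts. Nefl was nearest to Tppp3, a tubulin-binding protein (0.0553), Pvalb, parvalbumin (0.0557), and Nrn1, neuritin (0.0728). For Nefm they were Apbb2 (0.0975), Fkbp1b and Ube2ql1, and for Nefh Krt10 (0.213), Pde6d and Pradc1. For Tuba1a they were Neurl2 (0.133), Ctps2 and Atxn10, for Tuba1b Mob1b (0.0777), Ppm1g and Tex30, and for Tubb2a the alpha tubulin Tuba1a itself (0.164) and Ctps2. For Tubb3 they were Tspan17 (0.174), Camkmt and Prrt1, and for Tubb4a Galnt14 (0.113), Sh3bgr and Fsd1. For Tubb4b they were Papss1 (0.0876), Tmem159 and Hsd17b10, and for Tubb5 Vps35 (0.0660), the alpha tubulin Tuba4a (0.0764) and Usp14. With 6 pooled classes that share libraries, these likenesses are descriptions.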

How the data were processed

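Long-read single-cell data of 4 retina libraries were used as processed. The authors deposited whole-number counts per isoform for 6 cell classes and a set of transcript models whose source is FLAIR, a long-read isoform caller, per the file contents. The coordinates of the models are start and end positions, used as deposited on mm10 (GRCm38), the build named in the submitters' processing notes. Cell calling, class assignment, doublet treatment, strand use in counting, and whether molecular identifiers were collapsed are not given in the sources used here. The columns were taken as pooled over libraries, and 0 columns were left unused.

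Isoforms were summed by Ensembl gene identifier and scaled to CPM (counts per 1000000). Genes needed at least 10 counts for the 2-fold rule. A count of 0 allows up to 3 counts. Named genes were the 10 genes, other cytoskeleton genes with at least 1000 counts or absent from the table, isoforms with at least 100 counts, and the 3 genes nearest in profile. One of those nearest genes and some sequences are not reported here. The 10 genes and all lists were chosen with earlier results of these data known. Models were compared with GENCODE M21, whose transcripts gave the sequences. Alternatives were 2 other scalings (TMM, the trimmed mean method, and median of ratios), annotated isoforms only, overlapping loci added, 20 thinnings to the smallest column, division by model length, whole tubulin families, and other minimums for isoform changes. Both rules were tested on simulated data. Python 3.11.15 with numpy 2.4.6 and scipy 1.17.1 was used.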

Additional observations from a re-analysis of the deposited data

How the results depend on the processing

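No value has a replicate. No paired analysis was possible because cell classes, not numbered replicates, head the columns, and leaving out each library was not run for the same reason. The count of 5 genes called highest in a class by 2-fold stayed at 5 under each scaling, with annotated isoforms only, with overlapping loci and after thinning. It was 4 without the RGC column (Nefm in amacrine cells, Nefh in cones, Tuba1b in rods and Tubb4b in Müller glia), an alternative chosen after seeing the data. Genes highest in RGCs numbered 5, or 6 with the median of ratios, under which Tuba1b in rods was 0.967-fold of RGCs in place of 1.05-fold. Divided by model length, Nefl led the neurofilament counts in 4 classes in place of 5 and Tuba1a the alpha pair in 4 in place of 5. No gene changed its leading isoform between classes under any alternative run. In all, 32 of 32 alternative values of the main comparisons were within 1.5 times the main value. Of 398 further values, for single genes and for the background shares of all genes, 310 stayed and 1 reversed. The other 87 moved beyond counting error or, for a background share, by over 1.5 times. These totals are no measure of robustness, because several alternatives could change little. Overlapping loci added only 8 counts, to Tubb2a, and unannotated isoforms held 0.0450% of counts. The 20 thinnings were averaged before the 2-fold rule was applied, so they could hardly move its count. They do not show how calls vary at the depth of the smallest column. Isoform changes were looked for in 1 of the 20 thinnings. The 8 genes with 1 isoform could not change their leading one. A count of 4 in place of 5 also passed as within 1.5 times, although without the RGC column the called genes differed. Depth limits Nefh in RGCs (11 counts) and Müller glia (2 counts), and Nefm and Tubb4a in cones (12 and 14 counts).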
